A study of Drosophila melanogaster with 18 samples.

Results

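The Spalt genes salr (spalt-related, FBgn0000287) and salm (spalt major, FBgn0261648) were followed through all 18 libraries of a fly head RNA-seq series, as 2 of the 17558 genes in its count table. They were picked by symbol and were chosen on their measured values in these libraries, so every level, fold change and rank of salr and salm below is a description and carries no p-value. The series compared the RNA of tissue lysate with that of purified granules from heads of adult male and female Drosophila melanogaster. Each of the 2 genotypes, w1118 wild type and Δmimi, gave 3 preparations, and each preparation gave 1 lysate library, 1 library of the first granule pellet (granules 1) and 1 of the washed pellet (granules 2), so that the 6 groups held 3 libraries each. Δmimi is a CRISPR deletion that begins upstream of the start site of the long noncoding RNA gene mimi and extends into the gene, on another chromosome arm than the Spalt genes, and it is the only allele that the labels give as different between the genotypes. Every preparation pooled a large mass of flies, so that the spread between replicates is that between preparations and not between animals. The granules were a centrifugation pellet from whole heads, not sorted from 1 cell type, and the labels call them neuronal. In bulk RNA of this kind, fewer cells of a type and less RNA per cell cannot be told apart.

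Spalt proteins are zinc finger transcription factors that act as selectors of cell type. In the wing disc, both genes are targets of the BMP ligand Dpp, whose receptors phosphorylate Mad and relieve repression by Brk, and the Spalt proteins then place wing veins. In the head, they are known for the inner photoreceptors of the eye, where they act on the choice of rhodopsin, and for the auditory organ of the antenna. Spalt major is further known as the selector of the fibrillar flight muscle, and the pair for oenocytes and trachea. The genes are neighbours that share enhancers and are often expressed in the same cells.

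Library totals ran from 3635256 to 7798946 counts. Counts of mimi ran from 7090 to 18379 in the 9 wild-type libraries and from 30 to 113 in the 9 Δmimi libraries, so that the labels and the deletion went together in every library. Chosen markers of head cell types were present in all groups. The summed level of 4 neuronal markers ran from 985 to 1856 CPM (counts per 1000000 counts in the library, with the library sizes corrected by edgeR's TMM factors), that of 5 photoreceptor markers from 14392 to 33642 and that of 4 glial markers from 1571 to 2487. Photoreceptor markers had a mean sum of 27228 CPM in wild-type lysate and of 20724 CPM in wild-type granules 1. The sum of 3 flight muscle markers (Act88F, fln and TpnC4) varied widely between preparations. It ran from 16.9 to 241 CPM in wild-type lysate (mean 92.9) and from 54.2 to 401 CPM in Δmimi lysate (mean 172). A part of this in the genotype comparisons was not tested. Of the 5 chosen markers of ovary and early germline, nos (held by the table as nanos) and vas were not matched by name and not summed. The 3 matched ones (osk, bcd and otu) moved with the genotype. Their summed level ran from 5.2 to 12.2 CPM in the wild-type libraries and from 17.8 to 107 CPM in the Δmimi libraries, and none of the 3 was at 0 in any group. Their part in the genotype comparisons was not tested.

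On the reference assembly (BDGP6, the dm6 assembly), salr lies on chromosome 2L from 11358873 to 11373636 on the plus strand and salm from 11434311 to 11445614 on the minus strand, with the 3′ ends facing each other across 60.674 kb. The annotation gives salr 3 transcripts over 14.764 kb and 5536 exonic bases. One of the salr transcripts, salr-RC, starts at the first base of the gene, and the other transcripts start 6.416 kb further on. All of them share an exon of 2665 bases. The annotation gives salm 2 transcripts over 11.304 kb and 6118 exonic bases, the longest exon having 3836. No annotated gene overlaps either of them (0 for salr and 0 for salm). The counts are per gene, so that the transcripts of salr cannot be separated.

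In wild-type heads, salr was 3.83 times higher in granules 1 and 3.95 times higher in granules 2 than in lysate. In Δmimi heads its granule libraries overlapped its lysate libraries. The highest of them, granules 2 of preparation 2, held 41.0 CPM of salr, above the highest Δmimi lysate at 31.6 CPM. The lysate itself held 1.58 times less salr in Δmimi. Its neighbour salm showed no such step and ran from 10.1 to 20.9 CPM over all 18 libraries. Both genes were above the mean count of 10 that was asked for in every fit.

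The values of salr in single libraries were as follows. Wild-type lysate held 43.7, 43.3 and 39.5 CPM in preparations 1, 2 and 3, from 318, 324 and 230 counts. Wild-type granules 1 held 155, 162 and 172 CPM, from 979, 1065 and 963 counts. Wild-type granules 2 held 157, 175 and 167 CPM, from 809, 836 and 610 counts. All 6 wild-type granule libraries were thus higher than every lysate library, and the washed and unwashed pellets overlapped. In Δmimi, lysate held 31.6, 24.6 and 23.8 CPM, from 211, 140 and 126 counts. Δmimi granules 1 held 26.7, 30.1 and 28.3 CPM, from 163, 158 and 157 counts. Δmimi granules 2 held 29.7, 41.0 and 24.8 CPM, from 223, 231 and 113 counts. The Δmimi granule libraries overlapped the Δmimi lysate libraries, and every one of the 9 Δmimi libraries was lower than every wild-type granule library. The only overlap of salr between genotypes was with wild-type lysate: Δmimi granules 2 of preparation 2, at 41.0 CPM, exceeded the lowest wild-type lysate library.

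salm was low in every library. Wild-type lysate held 14.6, 13.2 and 15.1 CPM, from 106, 99 and 88 counts. Wild-type granules 1 held 11.6, 12.5 and 12.5 CPM, from 73, 82 and 70 counts. Wild-type granules 2 held 12.8, 13.0 and 10.1 CPM, from 66, 62 and 37 counts. Each wild-type granule library lay under each wild-type lysate library, by a margin smaller than the range within lysate. In Δmimi, lysate held 20.4, 12.7 and 16.1 CPM, from 136, 72 and 85 counts. Δmimi granules 1 held 20.9, 16.2 and 13.5 CPM, from 128, 85 and 75 counts. Δmimi granules 2 held 18.6, 15.4 and 12.5 CPM, from 140, 87 and 57 counts. Preparation 1 was the highest of the 3 in all Δmimi fractions, and the Δmimi groups overlapped each other.

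**Figure D1:**
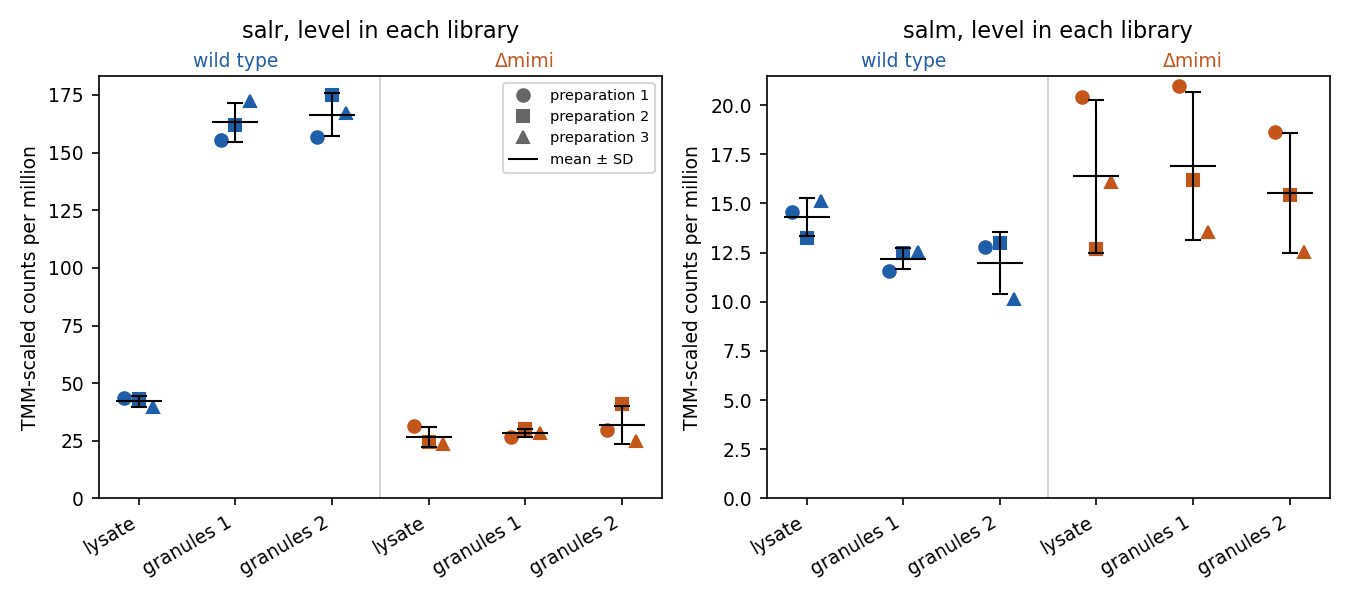
TMM-scaled CPM of salr (left) and salm (right) in each of the 18 libraries, by fraction and genotype, with each preparation as its own symbol and the mean ± SD of 3 libraries as a bar. The 6 wild-type granule libraries of salr lie between 155 and 175 CPM and all other libraries between 23.8 and 43.7 CPM, while salm has no such step.

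The order of the 6 group means of salr was wild-type granules 2 (166 ± 9.23 CPM, SD, n = 3), wild-type granules 1 (163 ± 8.48), wild-type lysate (42.2 ± 2.36), Δmimi granules 2 (31.8 ± 8.31), Δmimi granules 1 (28.4 ± 1.72) and Δmimi lysate (26.7 ± 4.30). The first and the second of these differed by less than their SD, and so did neighbours among the 3 Δmimi groups. The steps that exceeded the SDs on either side were those between wild-type granules and wild-type lysate, and between wild-type lysate and Δmimi granules 2. Among the genes expressed over all libraries, 86.0% had a lower mean CPM than salr in wild-type granules 2, 57.2% in wild-type lysate and 45.4% in Δmimi lysate.

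The order for salm was Δmimi granules 1 (16.9 ± 3.76 CPM, SD, n = 3), Δmimi lysate (16.4 ± 3.87), Δmimi granules 2 (15.5 ± 3.06), wild-type lysate (14.3 ± 0.966), wild-type granules 1 (12.2 ± 0.530) and wild-type granules 2 (12 ± 1.59). Each pair of neighbours in that order differed by less than the larger of their SDs, except wild-type lysate and wild-type granules 1. The share of genes with a lower mean CPM than salm ran from 28.4% to 35.2% over the groups.

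Per kilobase of exon, which allows levels of the pair to be compared, salr stood at 7.62 CPM per kb in wild-type lysate and salm at 2.34 CPM per kb. In wild-type granules 1 the levels were 29.5 CPM per kb for salr and 1.99 for salm, and in Δmimi granules 1 they were 5.13 for salr and 2.76 for salm. salr was thus the more abundant of the pair in every group.

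The ratio of salr to salm counts within a library needs no scaling between libraries. In wild-type lysate it was 3.00, 3.27 and 2.61 in preparations 1, 2 and 3. In wild-type granules 1 it was 13.4, 13.0 and 13.8, and in wild-type granules 2 it was 12.3, 13.5 and 16.5. The wild-type granule libraries therefore lay at least at 12.3, above the highest ratio of any lysate, 3.27. In Δmimi the ratio was 1.55, 1.94 and 1.48 in lysate. It was 1.27, 1.86 and 2.09 in Δmimi granules 1 and 1.59, 2.66 and 1.98 in Δmimi granules 2. The Δmimi fractions overlapped, and the Δmimi lysates were all below the wild-type lysates. The changes of salr were thus also present when it was read against the adjacent paralogue and not against the whole library.

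**Figure D2:**
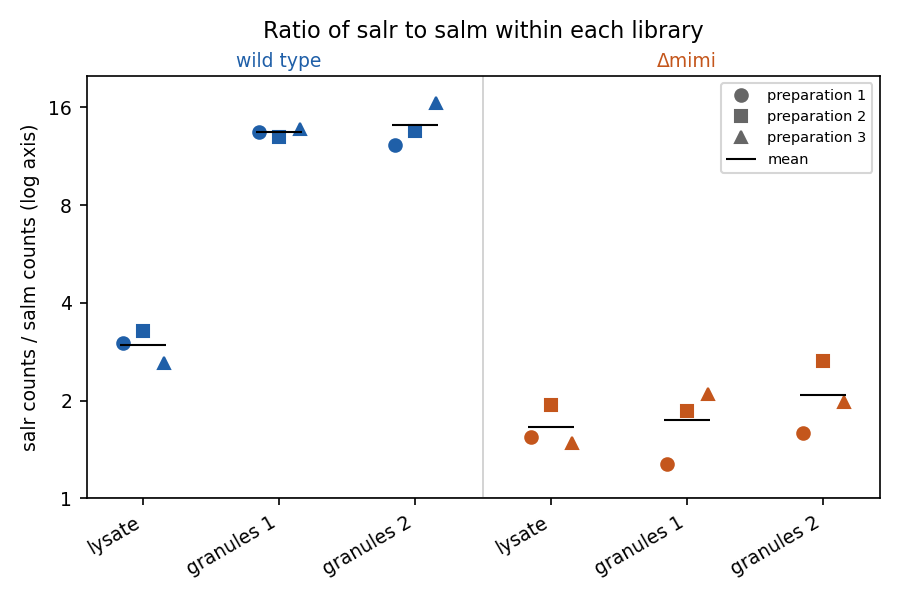
Counts of salr divided by counts of salm within each library (log axis), by fraction and genotype, with each preparation as its own symbol and the group mean as a bar. Group means are 2.96, 13.4 and 14.1 for wild-type lysate, granules 1 and granules 2, and 1.66, 1.74 and 2.08 for Δmimi.

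Lysate and granules of 1 preparation came from the same homogenate, so each preparation gave its own ratio of granules to lysate. For salr, granules 1 over lysate was 3.55, 3.75 and 4.36 in the wild-type preparations and 0.843, 1.22 and 1.19 in the Δmimi preparations. Granules 2 over lysate was 3.58, 4.05 and 4.24 in wild type and 0.939, 1.67 and 1.04 in Δmimi. The lowest wild-type ratio was thus above the highest Δmimi ratio in both fractions, which share their lysate libraries. The share of all genes with ratios separated in this way was not counted. For the wash, granules 2 over granules 1 was 1.01, 1.08 and 0.972 in wild type and 1.11, 1.36 and 0.876 in Δmimi. The share of salr in the pellet RNA was thus similar before and after washing in wild type. The amount of RNA lost in the wash is not given by these ratios.

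For salm, granules 1 over lysate was 0.794, 0.944 and 0.829 in the wild-type preparations and 1.03, 1.28 and 0.842 in the Δmimi preparations. Granules 2 over lysate was 0.877, 0.982 and 0.672 in wild type and 0.915, 1.22 and 0.779 in Δmimi. All 6 wild-type ratios of salm were below 1, with the lysates shared by both fractions, and the genotypes overlapped in both fractions. How many of all genes had such ratios was not counted.

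**Figure D3:**
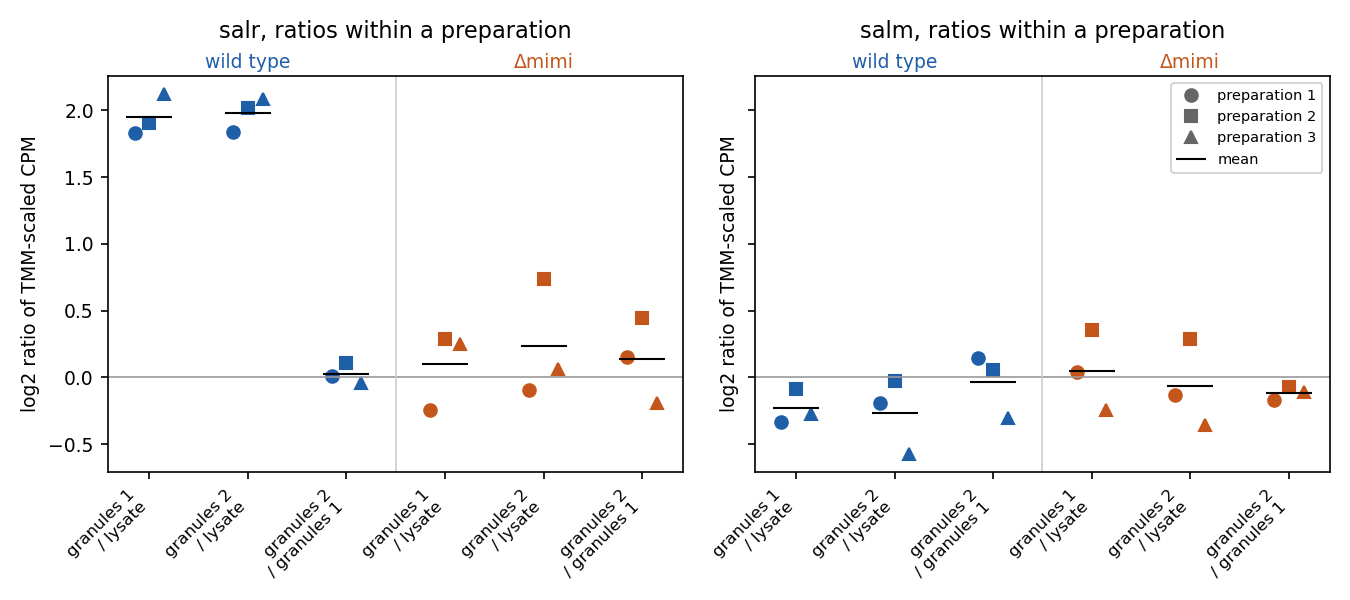
log2 ratio of TMM-scaled CPM between fractions of the same preparation for salr (left) and salm (right), with each of 3 preparations per genotype as its own symbol and the mean as a bar. The wild-type granule to lysate ratios of salr lie between 1.83 and 2.13 on the log2 scale and the Δmimi ratios between -0.25 and 0.74, while those of salm lie on both sides of 0.

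The fitted fold changes from edgeR put these levels beside those of all genes. A gene was called where its Benjamini-Hochberg adjusted p from the quasi-likelihood test was under 0.05 and its log2 fold change was over 0.5 in size, among genes with a mean normalized count above 10. In wild type, 4.81% of the 9744 genes tested were called higher and 3.36% lower in granules 1 than in lysate, and the libraries of the groups did not overlap for 32.7%. The log2 fold change of salr there was 1.94 (SE 0.10), the 59th highest of all genes tested, and that of salm was -0.24 (SE 0.13). The libraries did not overlap for either of the genes. In wild-type granules 2, 5.41% of genes were called higher, 4.05% lower and 34% did not overlap with lysate. There salr stood at 1.98 (SE 0.10), the 53rd highest of 9612, and salm at -0.24 (SE 0.15), again with no overlap for either gene. Both granule comparisons share the 3 lysate libraries.

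In Δmimi, granules 1 had 2.65% of 9736 genes called higher and 2% called lower than lysate, with 29.1% not overlapping. The log2 fold change of salr was 0.08 (SE 0.15), the 3551st highest, and that of salm 0.04 (SE 0.23). In Δmimi granules 2, 2.43% of 9772 genes were called higher, 1.89% lower and 28.7% did not overlap. salr stood at 0.26 (SE 0.21) and salm at -0.06 (SE 0.23). The libraries of the groups overlapped for both genes in both of these comparisons.

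Between genotypes, the lysates had the fewest calls. There 0.859% of 9774 genes were called higher and 0.778% lower in Δmimi, and 19.1% did not overlap. salr had a log2 fold change of -0.66 (SE 0.15) with no overlap, and salm one of 0.20 (SE 0.20) with overlap. In granules 1, 2.71% of 9763 genes were called higher and 3.04% lower in Δmimi, and 26.3% did not overlap. salr fell by 2.51 on the log2 scale (SE 0.10), or 5.70 times, the 24th lowest of all genes, while salm was 0.48 higher (SE 0.18). The libraries did not overlap for either gene. In granules 2, 2.67% of 9636 genes were called higher, 2.57% lower and 24.2% did not overlap. salr fell by 2.37 (SE 0.18), or 5.18 times, the 22nd lowest, and salm was 0.39 higher (SE 0.20) with overlapping libraries.

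The difference between the genotypes in granule enrichment was fitted as an interaction. For salr it was 1.84 on the log2 scale (SE 0.17) in granules 1, wild type minus Δmimi, the 5th highest of 9774 genes, and 1.72 (SE 0.23) in granules 2, the 4th highest of 9741. Over the alternatives that kept the filter, salr ranked between 2 and 14 in the first pellet. In the washed pellet the rank lay between 2 and 19, and both lowest places came without wild-type replicate 2. With no filter on low counts they were 1010 and 998 among 15194 and 15196 genes. The 4 genes above it in granules 1 had mean counts between 10.8 and 58.5 against 398 for salr. In granules 2 those above it had mean counts between 10.9 and 31.2 against 387 for salr. The gene next below salr there had nearly the same difference, 1.71 (SE 0.29), at a mean count of 2172. For salm the difference was -0.30 (SE 0.27) in granules 1 and -0.19 (SE 0.28) in granules 2. In granules 1, 1 gene was called with more enrichment in wild type (0.0102%) and 0 with less (0%). The genes tested include salr, which was chosen on these values, so these counts are no test of it. In granules 2, 0 genes were called in either direction (0%). The counts at an unadjusted p under 0.05 in edgeR were 255 in granules 1 and 231 in granules 2, and DESeq2 called 6 and 10 genes. With the preparation as a block, edgeR called 35 genes in granules 1 and 43 in granules 2. Without wild-type replicate 3, no gene was called in granules 1, and without mutant replicate 2, 1 gene was called in granules 2.

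Separately fitted enrichments were also compared. This was 1 of the criteria by which the study defined granule components, and its other criterion, significance in wild type alone, was not applied here. With the log2 enrichment in wild type minus that in Δmimi over 0.5 in both granule fractions, 1.62% of the 9424 genes tested in all 4 granule comparisons passed (153 genes). The difference of salr was 1.86 in granules 1 and 1.73 in granules 2, the highest of the 9424 genes in both. That of salm was -0.28 in granules 1 and -0.18 in granules 2.

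**Figure D4:**
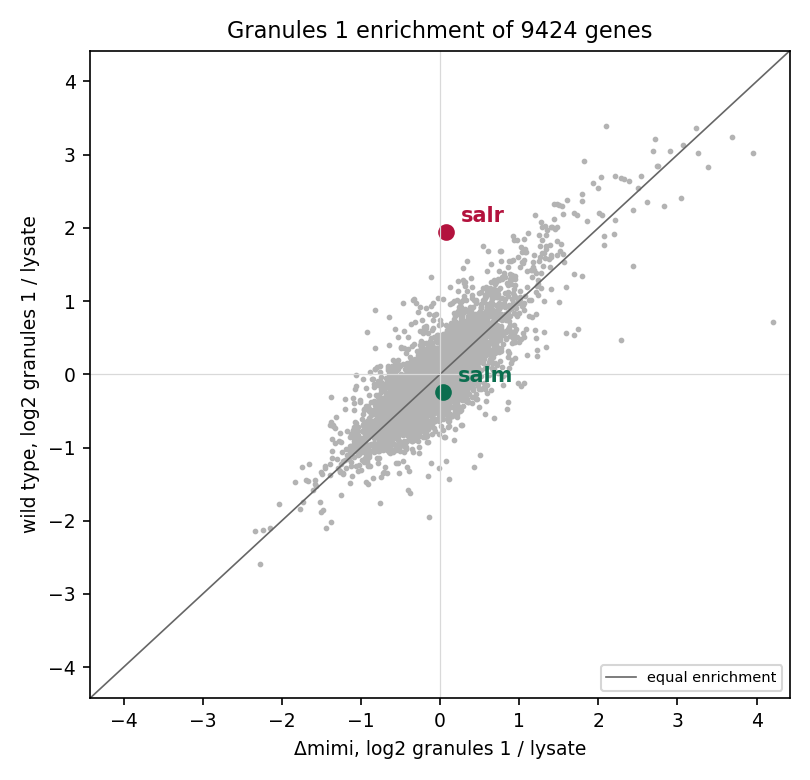
Fitted log2 fold change of granules 1 over lysate in wild type (vertical) against Δmimi (horizontal) for 9424 genes in grey, with salr and salm marked and the line of equal enrichment. salr lies at 1.94 in wild type and 0.08 in Δmimi, and salm at -0.24 and 0.04 lies within the cloud.

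The surroundings of the pair were read from the same fits. Within 100 kb of the locus the annotation lists 31 other genes, of which 28 were matched to the count table by identifier. Of these, 9 had no count in any library and 9 had at most 5 in any library. The nearest genes on either side of salr are lncRNA:CR44586, with no count in any library, and lncRNA:CR43681 between the pair, with at most 1. The nearest gene beyond salm, lncRNA:CR46454, was not analysed here.

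Of the neighbours far enough expressed to be tested (9 or 10 in a comparison), 6 were called in at least 1 comparison. The share of all genes called in at least 1 comparison was not counted, so the 6 have no share to be read against. For the counts of single comparisons below, the shares of all genes called were 8.17% in wild-type granules 1 and 9.46% in wild-type granules 2. Between genotypes they were 5.76% in granules 1 and 5.24% in granules 2. In wild type, 3 of 10 were called higher in granules 1 (CG31705, and cana and spz4, which are named after their values were seen), and none was called lower. CG31705 was 0.73 higher in granules 1 (SE 0.14, adjusted p = 0.0228) and 0.82 higher in granules 2 (SE 0.12, adjusted p = 0.00585), and also 0.58 higher in Δmimi granules 1 (SE 0.12, adjusted p = 0.0393). Between genotypes, 3 of 10 were called in granules 1 and 4 of 10 in granules 2, where CG31705 joined cmet, mre11 and CG31706. cmet, which encodes a kinesin of the kinetochore, was 2.02 higher in Δmimi (SE 0.38, adjusted p = 0.0235), and mre11, a nuclease of DNA repair, fell by 0.78 (SE 0.14, adjusted p = 0.0183). CG31706 fell by 0.63 (SE 0.11, adjusted p = 0.0191). In granules 2, cmet was 1.92 higher in Δmimi (SE 0.31, adjusted p = 0.0122), and mre11, CG31705 and CG31706 fell by 0.65, 0.59 and 0.56. When single preparations were left out, cmet, mre11 and CG31706 each lost the call in 4 of 6 cases, with adjusted p up to 0.0930, 0.0744 and 0.0991. In granules 2, mre11 lost it in 6 of 6 cases, CG31706 in 5, CG31705 in 4 and cmet in 2. CG31705 lost its wild-type calls in 2 of 3 cases in each fraction, with adjusted p up to 0.382, and its Δmimi granules 1 call in 3 of 3, with adjusted p from 0.114 to 0.335. No neighbour was called in either interaction (0 of 10 in each, with 0 at an unadjusted p under 0.05 in edgeR and 0 in DESeq2), where at most 0.0102% of all genes were called. In the lysates 0 of 9 were called, with 4 at an unadjusted p under 0.05 and 2 called by DESeq2. With the replicate block, 2 were called there and 3 in Δmimi granules 2, beside 924 of 9774 and 1448 of 9772 genes over all.

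The genes with which the Spalt genes are known to act were counted as 10 lists of 99 symbols. Of these, 91 were matched to the table by name and 83 were tested. A gene that the table held under another name was not counted, such as aret, present as bru1. What follows on the lists covers the matched genes only. In wild type, 14 of the 83 were called in granules 1 (10 higher and 4 lower) and 12 in granules 2 (9 higher and 3 lower). In Δmimi, 7 were called in granules 1 (4 higher and 3 lower) and 6 in granules 2 (3 higher and 3 lower). The shares of the list genes were 16.9%, 14.5%, 8.43% and 7.23%, beside 8.17%, 9.46%, 4.65% and 4.32% of all genes tested in the same comparisons. At such shares, a count of 0 in a single short list says little about that list. With the replicate block the counts over all lists were 22, 19, 16 and 17. The block raised the calls over all genes as well, to 1630 of 9744, 1731 of 9612, 1385 of 9736 and 1448 of 9772. Between the genotypes they rose to 924 of 9774 in lysate, 1023 of 9763 in granules 1 and 1082 of 9636 in granules 2. Single genes named below as called with the block are to be read against these counts. The counts without the block varied with the preparation left out, and so did the calls over all genes. Without wild-type replicate 1 the wild-type counts were 2 and 4, and without wild-type replicate 3 they were 0 and 0. Without wild-type replicate 2 both wild-type counts rose. Without mutant replicate 3 both Δmimi counts were 0. Without mutant replicate 1 they were 3 and 0, and without mutant replicate 2 the count in granules 1 was 4. Over all genes, calls in wild-type granules 1 moved from 796 to 135, 1140 and 49 without wild-type replicates 1, 2 and 3. Those in Δmimi granules 1 moved from 453 to 67, 160 and 17 without mutant replicates 1, 2 and 3. Whether list genes depended more on single preparations than other genes was not tested.

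Among the ligands, gbb, a BMP ligand that pairs with Dpp, was called higher in wild-type granules 1 (0.71, SE 0.10, adjusted p = 0.00682) and granules 2 (0.54, SE 0.10, adjusted p = 0.0169). Each of these calls was lost in 2 of 3 cases when a preparation was left out. The activin-type ligands Actbeta and myo, the most abundant of the list in lysate at 89.6 and 102 CPM, were not called in any comparison. Of the 5 receptors, 0 were called in any comparison, by edgeR or by DESeq2, and 2 had an unadjusted p under 0.05 in at least 1. The most abundant of them, put and wit, stood in wild-type lysate at 98.3 and 95.8 CPM. Of the 6 tested transducers and repressors, 0 were called by edgeR or DESeq2 and 2 had an unadjusted p under 0.05 in at least 1 comparison. Neither of the most abundant was called, the SMAD Smox (139 CPM) and the zinc finger cofactor shn (150 CPM). With the replicate block, brk was called in granules 2 between the genotypes, and the ligand mav in granules 2 and in lysate.

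Of the 8 secreted and surface modulators of Dpp tested, 6 were called higher in wild-type granules 1 and 5 in wild-type granules 2, and tok and dlp were called higher in both Δmimi fractions. The shares of all genes called higher were 4.81% and 5.41% in the wild-type fractions and 2.65% and 2.43% in the Δmimi fractions. The median log2 fold change of the list in wild-type granules 1 was 0.69, beside -0.04 for all genes tested. dlp, a glypican, had a mean of 91.5 CPM in wild-type lysate and 255 CPM in granules 1, a log2 fold change of 1.47 (SE 0.17, adjusted p = 0.00230). tok, a Tolloid-type protease, was 1.06 higher (SE 0.13, adjusted p = 0.00371) and cv-2, a BMP-binding protein, 0.72 higher (SE 0.12, adjusted p = 0.0121). cv, a Tsg-type protein, was 0.66 higher (SE 0.12, adjusted p = 0.0171). In Δmimi granules 1, dlp was 1.18 higher than in lysate (SE 0.13, adjusted p = 0.00370). It was the only modulator called between the genotypes, where it fell by 0.74 in granules 1 (SE 0.14, adjusted p = 0.0230) and by 0.72 in granules 2 (SE 0.15, adjusted p = 0.0311). When single preparations were left out, the call of dlp between genotypes in granules 1 was lost in 5 of 6 cases, with adjusted p up to 0.0930. The wild-type granules 1 calls of tok, cv, cv-2, sog and tld were each lost in 2 of 3 cases, with adjusted p up to 0.386. That of dlp was lost in 1 of 3.

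Of the 10 tested transcription factors of the wing programme, 0 were called in any comparison by edgeR or DESeq2, and 3 had an unadjusted p under 0.05 in at least 1. Their median log2 fold change between genotypes in granules 1 was 0.12, beside -0.00 for all genes. With the replicate block, knrl was called in granules 1, kni and knrl in granules 2 and nub in lysate between the genotypes. bi, a T-box factor and fellow target of Dpp, had a mean of 23.1 CPM in wild-type lysate and 22.2 CPM in wild-type granules 1. sd, the most abundant of the list, had 87.1 CPM in wild-type lysate.

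Of the 16 tested photoreceptor fate factors, melt and eya were called higher and Pph13 lower in wild-type granules 1. eya, a phosphatase and cofactor of So, was 0.84 higher (SE 0.14, adjusted p = 0.0119), melt, an adaptor of the pale or yellow photoreceptor choice, 0.74 higher (SE 0.13, adjusted p = 0.0175), and Pph13, a homeodomain factor, fell by 0.64 (SE 0.12, adjusted p = 0.0212). The most abundant of them, pros, was at 598 CPM in wild-type lysate and was called in all 4 granule comparisons with the replicate block. None was called between the genotypes in the fit without the block. With the block, ss was called in both granule fractions. When a preparation was left out, melt and Pph13 lost their wild-type granules 1 calls in 2 of 3 cases and eya in 1.

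All 7 rhodopsins had negative fitted values in wild-type granules 1, with a median of -0.51, and Rh3 and Rh4, the ultraviolet opsins, were called lower. Rh4 fell by 1.38 (SE 0.21, adjusted p = 0.00857) and Rh3 by 0.97 (SE 0.15, adjusted p = 0.0104), opposite in direction to salr. Both lost these calls in 2 of 3 cases when a preparation was left out. Between genotypes, the blue opsin Rh5 was the list gene called in all 3 fractions. Its mean was 365 CPM in wild-type lysate and 206 CPM in Δmimi lysate, 259 and 142 CPM in granules 1, and 263 and 142 CPM in granules 2. Rh5 fell by 0.83 in lysate (SE 0.14, adjusted p = 0.0381), by 0.86 in granules 1 (SE 0.10, adjusted p = 0.00372) and by 0.87 in granules 2 (SE 0.14, adjusted p = 0.0118). The call in lysate was lost in 4 of 6 cases when a single preparation was left out, with adjusted p up to 0.152 without wild-type replicate 3. Rh4 went the other way, with means of 690 CPM in wild-type lysate and 1111 CPM in Δmimi lysate, 268 and 425 CPM in granules 1, and 271 and 419 CPM in granules 2. It was not called without the block (adjusted p between 0.0801 and 0.120), and with the replicate block it was called higher in Δmimi in all 3 fractions.

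In the list of the antenna and auditory organ, ck, a myosin of the unconventional type, was called higher in all 4 granule comparisons, by 0.57 to 0.60. With a preparation left out, ck lost its call in 2 of 3 cases in each wild-type fraction and 3 of 3 in each Δmimi fraction. btv, a dynein heavy chain of the auditory cilia, was 0.64 higher in Δmimi granules 2 than in wild type (SE 0.12, adjusted p = 0.0229). That call was lost in 5 of 6 cases when a preparation was left out. In granules 1 edgeR called 0 genes of this list between the genotypes and DESeq2 called 1. With the replicate block, nompA was called in all 4 granule comparisons, and btv in 3 of them and between genotypes in all 3 fractions. In the flight muscle list, TpnC73F, a troponin C, fell by 1.66 in wild-type granules 1 (SE 0.26, adjusted p = 0.00998) and by 1.54 in granules 2 (SE 0.26, adjusted p = 0.0113). Each of these calls was lost in 2 of 3 cases when a preparation was left out. No flight muscle gene was called between the genotypes without the block, and with it 4 were called in lysate, 2 in granules 1 and 3 in granules 2. In Δmimi against wild type, the fitted values were above 0 for 9 of 10 tested genes in lysate and 10 of 10 in each granule fraction. The medians were 0.27 in lysate and 0.32 in each granule fraction, beside -0.01, -0.00 and 0.01 for all genes. What share of this came from the wide spread between preparations was not tested. The most abundant member, Mhc, ran from 5628 to 16127 CPM among the 3 wild-type lysates. Of the 5 tested genes of oenocytes and trachea, 0 were called by edgeR or DESeq2, and 1 had an unadjusted p under 0.05 in at least 1 comparison.

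Between the genotypes, 1 of the 83 list genes was called in the lysates, 2 in granules 1 and 3 in granules 2, and 10, 8 and 12 with the replicate block. Over all genes, the block gave 924 calls of 9774, 1023 of 9763 and 1082 of 9636 in the same comparisons. The shares without the block were 1.20%, 2.41% and 3.61%, beside 1.64%, 5.76% and 5.24% of all genes. With a single preparation left out, between 0 and 1 were called in the lysates, 1 or 2 in granules 1 and at most 2 in granules 2. In the interactions 0 list genes were called in either fraction, with 2 and 1 at an unadjusted p under 0.05 in edgeR and 0 in DESeq2. Over all genes, 0.0102% were called in granules 1 and 0% in granules 2. The largest interaction of a list gene was 0.80 in granules 1, beside 1.84 for salr.

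**Figure D5:**
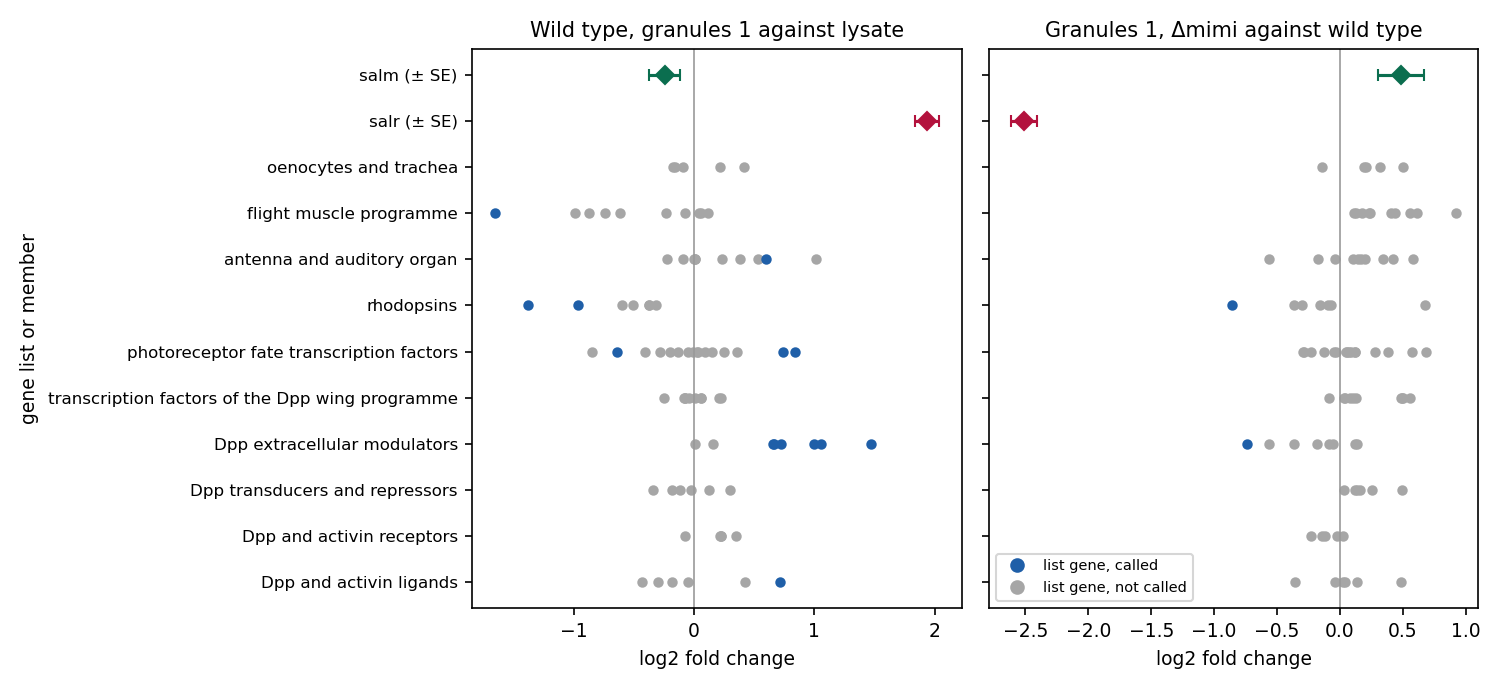
Fitted log2 fold changes of the tested list genes (points, called ones in blue) and of salr and salm (diamonds, ± SE) for wild-type granules 1 against lysate (left) and for granules 1 of Δmimi against wild type (right). In the left panel list genes lie between -1.66 and 1.47 and salr at 1.94, and in the right panel list genes lie between -0.86 and 0.92 and salr at -2.51.

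Across the 18 libraries, the pattern of salr and that of salm ran in opposite directions (Pearson r = -0.63, Spearman rho = -0.53 on log2 of CPM + 1). These points share preparations and the fraction and genotype structure, so that the values describe the table only. Among 9747 other genes, the 5 with the highest Pearson r to salr were CG32284 (0.982), CG33144 (0.980), nemy (0.973), aay (0.962) and Sesn (0.961), and 49 genes were above 0.9. The 5 were picked by likeness and were not tested, and the choice depends on the measure. Only 1 of them, CG33144, was among the 5 highest by Spearman rho, where Rgk2 was first at 0.930 and aay and Sesn ranked 48 and 176. With a pseudocount of 0.1, CG32284 had r = 0.937 and 4 of the 5 stayed. aay, a phosphoserine phosphatase, had means of 275, 895 and 880 CPM in wild-type lysate, granules 1 and granules 2, and of 142, 242 and 248 CPM in the Δmimi fractions. Sesn, a stress-induced regulator of TOR signalling, had 168, 341 and 353 CPM in wild type and 132, 166 and 169 CPM in Δmimi. CG32284 was far lower, with 1.63, 15.1 and 13.6 CPM in wild type and 0.217, 0.893 and 1.23 CPM in Δmimi. Like salr, these genes were highest in wild-type granules and lower in Δmimi lysate than in wild-type lysate. Within Δmimi they were less alike. There aay rose from 142 CPM in lysate to 242 and 248 CPM in granules 1 and 2, and CG32284 from 0.217 to 0.893 and 1.23 CPM. The Δmimi means of salr were 26.7, 28.4 and 31.8 CPM, with overlapping libraries.

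For salm, the likeness was weaker: the 5 highest Pearson r were those of scyl (0.825), CG42458 (0.817), hth (0.814), dsx (0.807) and Cep290 (0.798), and no gene was above 0.9. hth, a homeodomain factor with a role in the rim photoreceptors and the antenna, had means of 134, 111 and 111 CPM in wild-type lysate, granules 1 and granules 2 and of 158, 144 and 153 CPM in Δmimi. scyl, a regulator of growth under hypoxia, had 197, 171 and 176 CPM in wild type and 260, 246 and 265 CPM in Δmimi. dsx, the sex determination factor, had 57.2, 51.4 and 48.5 CPM in wild type and 68.4, 60.9 and 64.9 CPM in Δmimi. For scyl, hth and dsx, as for salm, the wild-type granule means were below the wild-type lysate mean, and the Δmimi means were above the wild-type mean of the same fraction. Cep290 broke this pattern in lysate, where its mean of 8.44 CPM in the mutant lay under the wild-type mean of 8.66 CPM. By Spearman rho, 2 of these 5 genes were again among the 5 highest, and with a pseudocount of 0.1 all 5 were.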

How the data were processed

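Counts per gene were deposited by the authors as 1 table of 17558 genes and 18 libraries, made from stranded, ribosome-depleted total RNA with STAR and featureCounts on dm6 and the release 96 annotation. Tool versions and the strand setting are not given in the sources used here. No column was left unused (0). Release 115 of the annotation supplied names and positions for 17252 identifiers, and 306 were not matched. Reads carried no molecular identifiers, so that counts are not independent molecules. Libraries held 3635256 to 7798946 counts, and salm at 37 to 140 counts is the less precise of the pair.

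Counts, scaled to CPM (per 1000000) for display, were tested with edgeR 4.0.16 (R 4.3.3, limma 3.58.1) by two-sided quasi-likelihood F tests with TMM scaling, a base mean above 10 and adjustment over all genes tested. Calls needed an adjusted p under 0.05 and a log2 fold change over 0.5 in size, thresholds used by the study. SEs were derived from the F statistic. Each comparison used its own libraries without a block. The script was tested on simulated data. DESeq2 1.42.0, other scaling (RLE), no filter, all 18 libraries in 1 fit, a prior count of 2, CPM without TMM, a pseudocount of 0.1, the replicate block and leaving out each preparation were the alternatives. The design text gives lysate and granules of a number as 1 preparation. Deviations of same-numbered libraries correlated in every pair (0.302 to 0.763 over all comparisons, genotypes included). The replicate block therefore used the numbers as pairing, whereas the main fits, with their SEs and calls, left the pairing out.

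Members and lists were chosen with earlier results of these data known. The named genes were the members, of each list the called genes (at most 4 per comparison, by p) and the 2 most abundant in wild-type lysate, of the neighbours the called ones (at most 4) and the nearest ones, and the 5 genes most like each member by Pearson r on log2(CPM + 1).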

Additional observations from a re-analysis of the deposited data

How the results depend on the processing

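The fitted log2 fold changes of salr and salm moved under the alternatives tried. These alternatives refit the same libraries or a part of them, so small shifts are not independent support. For salr, the ranges were 1.85 to 2.00 in wild-type granules 1, 1.91 to 2.04 in wild-type granules 2, -0.03 to 0.27 in Δmimi granules 1, -0.01 to 0.43 in Δmimi granules 2, -2.55 to -2.46 between genotypes in granules 1, -2.58 to -2.23 in granules 2 and -0.81 to -0.58 in lysate. The interaction of salr lay between 1.65 and 1.95 for the first pellet, and between 1.53 and 1.98 for the washed one. The values of salm near 0 took either sign in lysate (-0.01 to 0.36) and in both Δmimi granule comparisons.

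Counts of called list genes depended on the settings. With DESeq2 they were 3 in the lysates, 11 in Δmimi granules 1 and 4 between genotypes in granules 1. With the replicate block, which pairs the preparations, they were 10 in the lysates, 22 and 19 in wild-type granules 1 and 2, 16 and 17 in the Δmimi fractions, and 8 and 12 between genotypes in granules 1 and 2, and no call made without the block was lost. With all 18 libraries in 1 fit they were 2 in the lysates and 5 between genotypes in each granule fraction. Leaving out single preparations gave ranges of 0 to 1 in the lysates, 0 to 21 and 0 to 14 in wild-type granules 1 and 2, 0 to 4 in each Δmimi fraction, 1 to 2 between genotypes in granules 1 and 0 to 2 in granules 2. Among named list genes and neighbours, 141 alternatives kept the direction but lost the call, nearly all of them with a preparation left out, and none reversed it. Over all genes, calls between the lysates rose from 160 to 421 with DESeq2, 496 with all 18 libraries in 1 fit and 924 with the block. The block raised them from 796 to 1630 and from 909 to 1731 in the wild-type fractions, from 453 to 1385 and from 422 to 1448 in Δmimi, and from 562 to 1023 and from 505 to 1082 between genotypes. In Δmimi granules 1 and 2, the fit of all 18 libraries gave 835 and 854, and DESeq2 gave 667 in granules 2. With a preparation left out, calls lay between 73 and 267 in the lysates. They lay between 49 and 1140 and between 79 and 886 in the wild-type fractions, between 17 and 160 and between 10 and 117 in the Δmimi fractions, and between 246 and 482 and between 243 and 444 for the genotypes. The Spearman rho of CG32284 with salr was 0.880. Depth limits salm most, at 37 counts in the smallest library.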
